A study of Mus musculus with 48 samples.

Results

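The simple-epithelial keratins Krt7, Krt8, Krt18 and Krt19, the 14-3-3 protein gene Sfn, the galectin gene Lgals3 and the integrin subunit gene Itgb6 are described across the lungs of 48 adult mice. They were chosen by gene name, as genes of the transitional state of the alveolar epithelium. They and the gene lists read beside them were chosen with earlier results of these data known. The genes described are 7 of the 47561 listed in the expression table. All 7 had a row in the table, and all 7 passed the filter on low values in every comparison.

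Keratins are the intermediate filament proteins of epithelia, and a filament is built from pairs of a type II keratin (Krt7, Krt8) with a type I keratin (Krt18, Krt19). In the alveoli, surfactant-producing type 2 (AT2) cells divide after injury and become the flat type 1 (AT1) cells across which gas passes. Between these states they pass through a transitional stage that is known for high Krt8, Sfn and Lgals3 and for genes of the p53, integrin and TGF-beta pathways. The keratins and Lgals3 are also made by other cells of the lung: the keratins by airway epithelium and mesothelium, and Lgals3 by macrophages. The measurements were made on whole lung tissue, so fewer cells of a type and less RNA per cell cannot be told apart.

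The mice were male and female C3H (C3H/HeN in the labels, named C3HM and C3HF) and male and female C57B (C57Bl/6 in the labels, named C57BM and C57BF). The labels give 1 intraperitoneal injection of saline or of 25 mg/kg ATG (aurothioglucose, a gold compound that inhibits thioredoxin reductase), then 96 h in room air or in hyperoxia at over 95% oxygen. Each of the 16 combinations of strain, sex, injection and air held 3 mice, and the same number follows a mouse through the text (C3HM 2 is the library numbered 2). The design text states that each group was pretreated with ATG, whereas the sample labels assign 24 mice to saline; the labels were followed. The sources differ on the C57B substrain, so it is not given. Nothing in the labels ties mice to litters, cages or sequencing runs. The table gives FPKM, fragments scaled by transcript length and by library size, and no read counts, so the depth of each library is unknown.

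FPKM sums ran from 510933 to 748290 per library. Scgb1a1, the secretory protein of club cells, took 10.4 to 30.2% of that sum in room air and 1.2 to 7.17% in hyperoxia, so the remaining genes shared a larger part of the sum in hyperoxia. Counts of genes called depended on which of the male C3H saline mice in room air were left out. Without C3HM 2 the count of genes called for sex rose from 104 to 3640, and without C3HM 1 and 3 it was 30. Which of these mice were unusual was not tested. The C3HM 2 values for the 7 genes lay within the range of the other C3H saline mice in room air, apart from the lowest Lgals3 value (158.9 FPKM).

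Krt7, Krt8 and Krt18 lie in the keratin cluster of chromosome 15, and 23697 bases separate Krt8 from Krt18 in the GENCODE annotation of the mm10 assembly (GRCm38). In that build the spans are chr15:101411043-101430313 (plus strand) for Krt7, chr15:101996698-102004482 (minus strand) for Krt8 and chr15:102028180-102032027 (plus strand) for Krt18. Krt8 and Krt18 are therefore read in opposite directions, with their starts facing each other. Krt19 is at chr11:100140810-100148665 (minus strand), among type I keratins. Sfn is at chr4:133600556-133602168 (minus strand), Lgals3 at chr14:47367751-47386160 (plus strand) and Itgb6 at chr2:60598292-60722643 (minus strand).

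The starts of 4 of the genes are shown from RefSeq (GRCm38.p6), 250 bases before to 50 bases after the start, because these 4 separated hyperoxia from room air without overlap and because Krt8 and Krt18 form 1 filament and face each other on the chromosome. Windows were found for 6 of the 7 genes; Krt19 had none. Capitals mark matches to the TATA box, TATAAA, on either strand. They also mark the GC box, which is GGGCGG here, on either strand. The windows, 5′ to 3′ on the strand of the gene, are chr15:102004293-102004592 (minus) for Krt8, chr15:102027966-102028265 (plus) for Krt18, chr4:133602119-133602418 (minus) for Sfn and chr14:47373610-47373909 (plus) for Lgals3.
Krt8: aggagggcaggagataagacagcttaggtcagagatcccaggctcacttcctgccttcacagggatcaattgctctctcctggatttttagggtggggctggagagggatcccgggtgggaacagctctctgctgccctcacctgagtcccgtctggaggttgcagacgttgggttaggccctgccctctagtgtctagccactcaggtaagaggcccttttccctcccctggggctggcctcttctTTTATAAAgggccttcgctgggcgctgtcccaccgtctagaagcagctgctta
Krt18: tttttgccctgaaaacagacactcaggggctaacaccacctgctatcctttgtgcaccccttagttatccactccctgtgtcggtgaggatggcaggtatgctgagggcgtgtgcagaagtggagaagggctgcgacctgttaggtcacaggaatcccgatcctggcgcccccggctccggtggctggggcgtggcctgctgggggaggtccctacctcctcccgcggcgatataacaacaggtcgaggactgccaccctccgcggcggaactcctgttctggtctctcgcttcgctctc
Sfn: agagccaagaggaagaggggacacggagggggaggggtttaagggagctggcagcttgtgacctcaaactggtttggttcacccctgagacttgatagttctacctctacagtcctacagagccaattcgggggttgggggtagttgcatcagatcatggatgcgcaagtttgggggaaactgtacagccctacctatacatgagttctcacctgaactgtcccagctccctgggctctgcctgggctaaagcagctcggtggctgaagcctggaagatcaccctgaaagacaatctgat
Lgals3: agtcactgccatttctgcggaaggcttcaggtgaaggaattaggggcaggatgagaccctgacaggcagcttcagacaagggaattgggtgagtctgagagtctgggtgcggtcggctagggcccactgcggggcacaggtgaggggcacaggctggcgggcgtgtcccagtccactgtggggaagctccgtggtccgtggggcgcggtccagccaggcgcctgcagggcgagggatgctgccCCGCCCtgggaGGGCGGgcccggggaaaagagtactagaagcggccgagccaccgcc
The Krt8 window holds TATAAA on both strands, overlapping across the RefSeq start, and 13.6% of all 32851 windows of this length hold that motif. The Lgals3 window holds 2 GC boxes, where 35.7% of all windows hold at least 1, and the Krt7 window (not shown) holds 4. The windows of Krt18 and Sfn hold none of the 5 motifs searched. The letters TGANTCA (the AP-1 site, in 7.81% of all windows) and the p53 decamer (in 8.36%) were found in no window of the 6 genes that had one. TGACNNNGC (the core of the antioxidant response element, in 12.4%) was found in 1 window of Itgb6 and not in the other window of that gene.

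Krt19 had the highest median in saline mice in room air (197.5 FPKM), followed by Lgals3 (160.1 FPKM), Krt8 (119.4 FPKM), Krt7 (117.1 FPKM), Krt18 (84.62 FPKM), Itgb6 (14.95 FPKM) and Sfn (11.29 FPKM). FPKM is scaled by transcript length, so these levels can be set side by side. Neighbours in this order overlapped across the 12 mice except Krt18 and Itgb6, and Krt8 and Krt7 traded places, with Krt8 higher in 6 of 12 mice. In saline mice in hyperoxia the order was Lgals3 (668.4 FPKM), Krt8 (470.7 FPKM), Krt19 (392.6 FPKM), Krt18 (321.9 FPKM), Krt7 (205.0 FPKM), Sfn (64.53 FPKM) and Itgb6 (19.11 FPKM). Every pair of neighbours there overlapped. Sfn lay above Itgb6 in 11 of 12 mice in hyperoxia. The order of medians was not the same in both strains. In room air the Sfn median was below that of Itgb6 in C3H (5.636 and 17.83 FPKM) and above it in C57B (20.05 and 12.16 FPKM). In hyperoxia Krt19 stood above Krt8 in C3H (571.7 and 517.7 FPKM) and below it in C57B (309.6 and 457.4 FPKM).

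**Figure D1:**
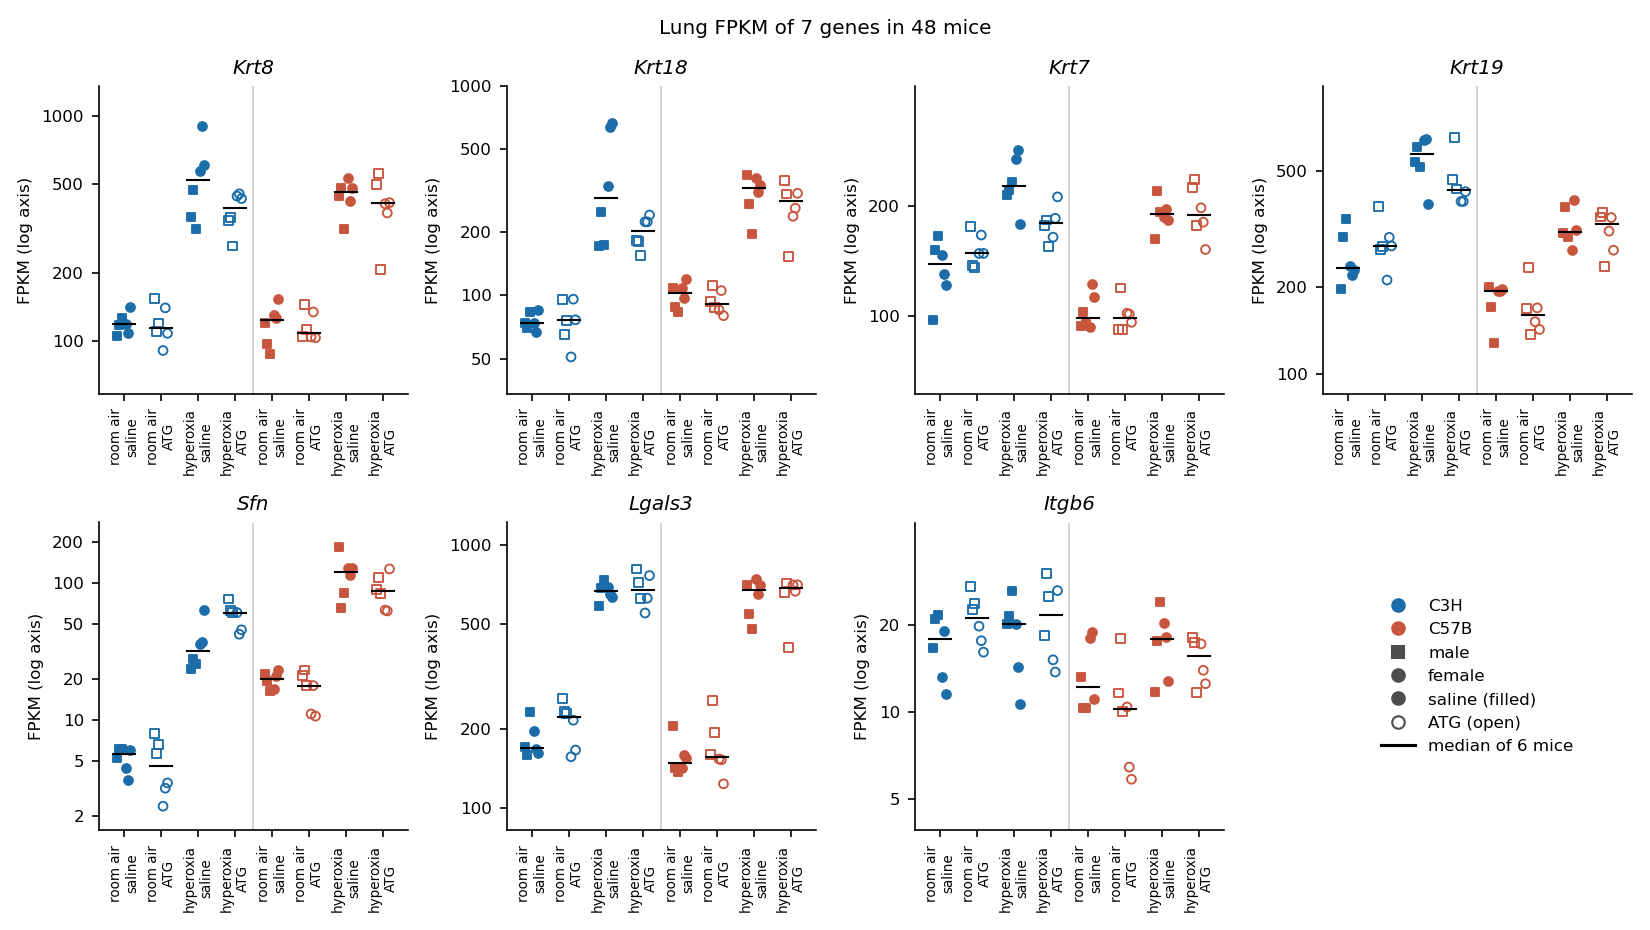
FPKM on a log axis for each of the 7 genes in all 48 mice, by strain (colour), air and injection, with males as squares, females as circles, saline filled, ATG open and the median of 6 mice as a black line. Krt8, Krt18, Sfn and Lgals3 in hyperoxia lay above every room air mouse of the same strain, Sfn was lower in C3H than in C57B within saline mice, and Itgb6 overlapped between room air and hyperoxia.

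Hyperoxia against room air in saline mice asked how far 96 h of oxygen moved these genes. All 4 keratins, Sfn and Lgals3 were higher in hyperoxia, between 1.77-fold (Krt7) and 5.53-fold (Sfn) on the scale of FPKM + 1, and Itgb6 was not called. By limma with Benjamini-Hochberg adjustment over the 16321 genes tested, 6 of the 7 passed an adjusted p of 0.05 in the upward direction, where 31.8% of all genes did. Their median log2 fold change was 1.83, and that of all genes was 0.013.

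Krt8, the type II keratin that gives the transitional state one of its names, ran from 86.91 to 152.5 FPKM in the 12 saline mice in room air (median 119.4) and from 312.4 to 905.6 FPKM in the 12 in hyperoxia (median 470.7). Its type I partner Krt18 ran from 66.65 to 119.4 FPKM (median 84.62) in room air and from 172.8 to 666.8 FPKM (median 321.9) in hyperoxia. Neither gene had a hyperoxia mouse within the room air range. Krt8 rose by 1.98 on the log2 scale (SE 0.0958, adjusted p = 1.45e-12, limma) and Krt18 by 1.83 (SE 0.116, adjusted p = 7.81e-11, limma). The highest Krt8 value was that of C3HF 32 (905.6 FPKM), and the highest Krt18 value that of C3HF 33 (666.8 FPKM).

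Krt7 and Krt19, which with Krt8 and Krt18 make up the keratins of simple epithelia, rose by 1.77-fold and 2-fold. Krt7 ran from 93.45 to 166 FPKM in room air (median 117.1) and from 162.5 to 283.6 FPKM in hyperoxia (median 205.0), a log2 fold change of 0.83 (SE 0.09, adjusted p = 1.56e-07, limma). Krt19 ran from 128.2 to 342.4 FPKM in room air (median 197.5) and from 267.4 to 647.6 FPKM in hyperoxia (median 392.6), a log2 fold change of 1.00 (SE 0.106, adjusted p = 1.05e-07, limma). For Krt7, 11 of 12 hyperoxia mice lay above all room air mice, and for Krt19, 8 of 12 did. The overlap for Krt19 lay between strains, since the highest room air values were those of C3H mice and the lowest hyperoxia values those of C57B mice, and within each strain the saline groups did not overlap.

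The share of each keratin in the summed level of the 4 was also taken. Their summed FPKM was 543 ± 84.3 (SD, n = 12) in saline mice in room air and 1483 ± 391.8 (SD, n = 12) in hyperoxia. Krt19 made up 39.4% ± 4.67 of that sum in room air and 30.1% ± 7.83 in hyperoxia, and Krt7 22% ± 2.59 and 14.7% ± 2.78. Krt8 went from 22% ± 2.56 to 32.7% ± 3.95 and Krt18 from 16.6% ± 3.93 to 22.5% ± 6.71 (SD, n = 12 each). These shares were not tested.

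Sfn, which encodes 14-3-3 sigma, a p53 target that holds cells at the G2 checkpoint and binds keratins, had the largest fold of the 7. It ran from 3.625 to 23.01 FPKM in room air (median 11.29) and from 23.5 to 185.2 FPKM in hyperoxia (median 64.53). The groups touched but did not overlap, because the highest room air mice were C57B and the lowest hyperoxia mice C3H. The log2 fold change was 2.47 (SE 0.135, adjusted p = 9.27e-12, limma).

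Lgals3 encodes galectin 3, a lectin that binds beta-galactosides on glycoproteins. It ran from 137.8 to 231.3 FPKM in room air (median 160.1) and from 478.7 to 737.4 FPKM in hyperoxia (median 668.4), with the tightest spread of the 6 called genes in hyperoxia relative to its mean (649.3 ± 78.9 FPKM, SD, n = 12). It rose by 1.94 on the log2 scale (SE 0.0827, adjusted p = 3.51e-13, limma), and every hyperoxia mouse lay above every room air mouse. Lgals3 is also a macrophage gene. Of the 7 macrophage markers tested, 6 rose and 1 fell in the same comparison, where 31.8% of all genes rose and 28.3% fell. The summed FPKM of the macrophage markers ran from 164.7 to 641 in saline mice in room air and from 354.4 to 1920 in hyperoxia. With ATG against saline in hyperoxia, 3 of the 7 markers were called lower and 0 higher, where 1.58% of all genes were lower. Lgals3 gave 0.02 in that comparison (adjusted p = 0.931, limma). The part of macrophages in the Lgals3 values was not tested.

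Itgb6 encodes the beta 6 subunit that pairs with the alpha v integrin and releases active TGF-beta at epithelial surfaces. It ran from 10.32 to 21.62 FPKM in room air (median 14.95) and from 10.65 to 26.09 FPKM in hyperoxia (median 19.11). The log2 fold change was 0.22 (95% confidence interval -0.05 to 0.49, adjusted p = 0.157, limma). The ranges overlapped over most of their width, and 2 of 12 hyperoxia mice were above all room air mice.

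Values in FPKM gave the same calls. In an exact two-sided permutation test of mean FPKM within strain and sex, the 6 genes each reached 1.25e-05, the smallest p that the design allows, and Itgb6 gave an exact p of 0.107. Without overlap between the 12 hyperoxia and 12 room air mice were 4 of the 7 genes (Krt8, Krt18, Sfn and Lgals3), where 5.61% of all genes were higher without overlap.

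Within each strain the same 6 genes were called (Krt7, Krt8, Krt18, Krt19, Sfn and Lgals3), in 6 C3H against 6 C3H saline mice (25.3% of all genes called higher) and in 6 C57B against 6 C57B saline mice (25.5%). Krt18 had a log2 fold change of 2.08 (SE 0.164) in C3H and 1.59 (SE 0.164) in C57B. The difference, 0.49 (95% confidence interval 0.004 to 0.97), had a limma p of 0.0482 before and 0.174 after adjustment and was not called. Without C3HF 31 it passed (0.65, adjusted p = 0.0421), and in males alone it had the opposite sign (-0.17, adjusted p = 0.775). Sfn rose by 2.48 in C3H and by 2.46 in C57B, with a difference of 0.02 (95% confidence interval -0.55 to 0.58). Of the 7 genes, 0 were called for a strain difference in the hyperoxia response, where 11.5% of all genes were called by limma. At an unadjusted p under 0.05, 1 of the 7 (Krt18) and 28% of all genes passed. Itgb6 gave 0.11 in C3H and 0.33 in C57B (adjusted p = 0.69 and 0.137), and in C57B it passed without C57BM 19 (0.46, adjusted p = 0.0394).

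**Figure D2:**
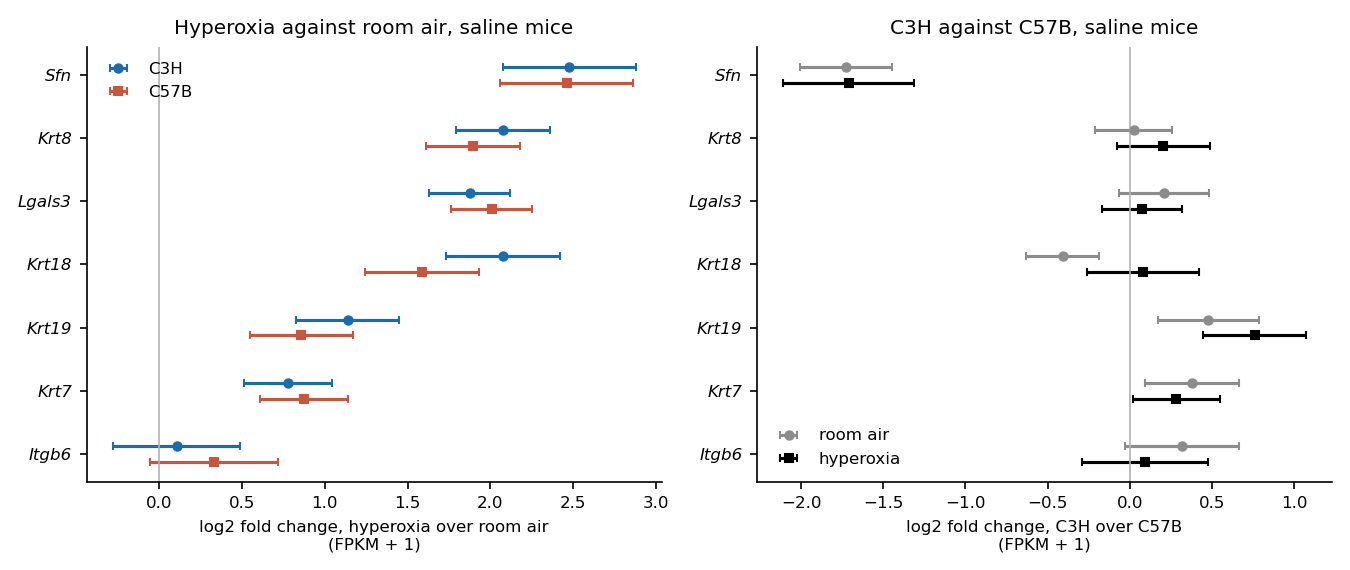
Log2 fold changes with 95% confidence intervals from limma on FPKM + 1 in saline mice, for hyperoxia over room air within each strain (left) and for C3H over C57B in each air (right). In the left panel 6 genes lay clear of 0 in both strains and Itgb6 did not. In the right panel Sfn lay near -1.7 in both airs.

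Males and females were also compared in their response. For Krt18 the log2 fold change of males minus that of females was -0.75 (95% confidence interval -1.24 to -0.27, unadjusted p = 0.00409, adjusted p = 0.161, limma). In C3H saline hyperoxia mice the Krt18 values were 172.8, 250.2 and 174.9 FPKM in males and 333.6, 635.8 and 666.8 FPKM in females. The C57B values were 374.4, 272.2 and 197.6 FPKM in males and 363.2, 310.3 and 338 FPKM in females. Females were above all males in C3H and within the male range in C57B. Sfn gave -0.62 (unadjusted p = 0.0332, adjusted p = 0.241, limma), and neither was called. Without C57BM 19 both passed (Krt18 -0.87, adjusted p = 0.0322; Sfn -0.83, adjusted p = 0.0294). Of the 7 genes, 0 were called for a sex difference in the hyperoxia response, where 0.0368% of all genes were. At an unadjusted p under 0.05, 2 of the 7 (Krt18 and Sfn) and 18.2% of all genes passed.

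A pair of mice were high for some of the 7 genes and low for others. C3HF 33, with the highest Krt18 value of all mice and the highest Sfn value of the C3H saline hyperoxia mice (63.18 FPKM), had the lowest Krt7 (178.7 FPKM), Krt19 (386.7 FPKM) and Itgb6 (10.65 FPKM) of those 6 mice. It also had the highest summed neutrophil markers of all 48 mice (6195 FPKM) and the lowest summed AT1 markers (1576 FPKM). C57BM 19, with the highest Sfn value of all mice (185.2 FPKM), had the lowest Krt7 (162.5 FPKM) and Itgb6 (11.68 FPKM) of the C57B saline hyperoxia mice and the highest neutrophil sum of the C57B mice in hyperoxia (4798 FPKM). The part of these other cells in the values was not tested.

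At baseline, in saline mice in room air, C3H and C57B were compared for the level from which the response started. By limma 3 of the 7 genes differed between 6 C3H and 6 C57B mice, where 11.8% of all 15546 genes tested did. Sfn and Krt18 were lower in C3H and Krt19 was higher.

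Sfn was at 5.269, 6.147 and 6.171 FPKM in C3H males and at 4.486, 3.625 and 6.002 FPKM in C3H females. In C57B it was at 21.78, 19.1 and 16.4 FPKM in males and at 16.87, 21 and 23.01 FPKM in females. The highest C3H value was under the lowest C57B value, as for 3.85% of all genes. The means were 5.28 ± 1.04 and 19.7 ± 2.69 FPKM (SD, n = 6 each), a log2 fold change of -1.73 (SE 0.129, adjusted p = 3.63e-06, limma), and the exact permutation p was 0.005, the smallest that this design allows.

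Krt18 was at 75.4 ± 7.41 FPKM in C3H and 100.8 ± 13.5 FPKM in C57B (SD, n = 6 each), and 5 of 6 C3H mice lay below all C57B mice. The log2 fold change was -0.41 (SE 0.101, adjusted p = 0.0213, limma; exact permutation p = 0.005). Krt8 did not follow it, at 119.1 ± 12.9 FPKM in C3H and 118.7 ± 23.8 FPKM in C57B (SD, n = 6 each), with a log2 fold change of 0.02 (95% confidence interval -0.21 to 0.26). Rescaling the libraries by median ratios ended the Krt18 call (log2 fold change -0.30, adjusted p = 0.122, limma), as did estimating the spread over all 48 mice (-0.41, adjusted p = 0.102) and fitting males (-0.30, adjusted p = 0.291) or females alone (-0.52, adjusted p = 0.0701). Leaving out C57BM 13 (-0.35), C3HF 25 (-0.40), C3HF 26 (-0.37) or C57BF 39 (-0.37) also ended it, at adjusted p from 0.0536 to 0.0616.

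Krt19 was higher in C3H, at 252.9 ± 55.3 against 179.9 ± 27.4 FPKM (SD, n = 6 each), and 5 of 6 C3H mice lay above all C57B mice. Its log2 fold change of 0.48 (SE 0.141, adjusted p = 0.0468, limma) stood close to the threshold, and the call was lost under 6 of 10 other settings. It was also lost when any 1 of 9 of the 12 mice was left out (0.39 to 0.49, adjusted p 0.0744 to 0.11), and was kept without C3HM 1, C3HM 2 or C57BM 13. Krt7 was at 135.8 ± 24.4 and 103.4 ± 11.8 FPKM (SD, n = 6 each; log2 fold change 0.38, adjusted p = 0.0854, limma), and was not called. It passed under median ratio scaling (0.49, adjusted p = 0.0188), with the spread over all 48 mice (0.38, adjusted p = 0.0192), without C3HM 1 and 3 (0.46, adjusted p = 0.0214) and without C3HM 1 alone (0.49, adjusted p = 0.00535). Lgals3 and Itgb6 gave 0.21 and 0.32 (adjusted p = 0.325 and 0.233, limma).

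Sfn also separated the strains in hyperoxia. There it was at 23.5, 27.88 and 25.66 FPKM in C3H males and at 35.72, 37.18 and 63.18 FPKM in C3H females, against 185.2, 65.88 and 85.41 FPKM in C57B males and 128.9, 114.2 and 128.6 FPKM in C57B females. The groups did not overlap, as for 4.78% of all genes, and the log2 fold change was -1.71 (SE 0.191, adjusted p = 1.43e-06, limma). Krt19 was again higher in C3H, at 556 ± 98.7 against 326.4 ± 50.6 FPKM (SD, n = 6 each; log2 fold change 0.76, SE 0.149, adjusted p = 0.000778, limma). Krt18 gave a log2 fold change of 0.08 (95% confidence interval -0.26 to 0.42). Krt7 gave 0.28 (adjusted p = 0.108, limma) and passed without C3HF 33 (0.39, adjusted p = 0.018) or, through the shared spread, without C3HM 1 (0.28, adjusted p = 0.0493). Of the 7 genes, 2 were called between strains in hyperoxia, where 27.2% of all genes were.

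Because Krt8 and Krt18 pair in 1 filament, the ratio of their FPKM was taken in each mouse, a measure added after the values had been seen. In saline mice in room air it ran from 1.417 to 1.678 in C3H (median 1.62) and from 1.038 to 1.305 in C57B (median 1.155). The groups did not overlap (mean log2 ratio 0.658 ± 0.0919 and 0.222 ± 0.132, SD, n = 6 each; exact permutation p = 0.005). In hyperoxia the strains overlapped, at 0.653 ± 0.423 in C3H and 0.529 ± 0.198 in C57B (exact permutation p = 0.475), and the C3H range went from 0.911 to 2.05 as a ratio. The lowest value was that of C3HF 33. Over both strains the log2 ratio was 0.44 ± 0.252 in room air and 0.591 ± 0.321 in hyperoxia (SD, n = 12 each; exact permutation p = 0.159).

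**Figure D3:**
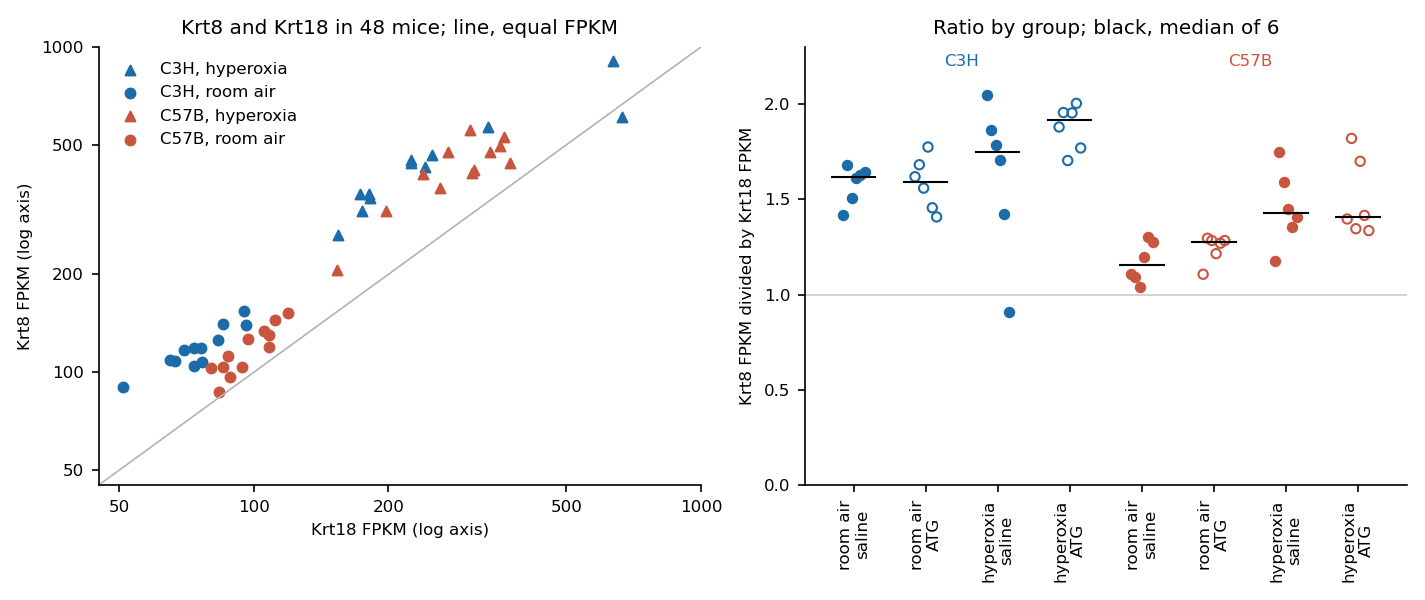
Left, Krt8 against Krt18 FPKM on log axes in 48 mice, with circles for room air, triangles for hyperoxia and a line at equal values. Right, the Krt8 to Krt18 ratio by group (filled, saline; open, ATG; black line, median of 6). All mice but C3HF 33 lay above the line, and in room air with saline the C3H ratios (1.417 to 1.678) lay above the C57B ratios (1.038 to 1.305).

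The Krt8 value carries a limit of its sequence. Of the 30-base words of its transcripts, 36.7% occur in another gene, 32.6% in the pseudogene Krt8-ps alone, and fragments from such words could be assigned to either. Krt8-ps was listed at 16.42 to 55.77 FPKM in the 24 room air mice and at 61.45 to 363 FPKM in the 24 hyperoxia mice. The shared part was 27.7% for Sfn, 12.4% for Krt18, 3.19% for Krt7 and under 1% for Krt19 (0.658%), Itgb6 (0.421%) and Lgals3 (0%). Exons of Krt8 also overlap those of Gm36026, and exons of Krt7 those of Gm671, and use of strand in the assignment of fragments is not given in the sources used here.

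Sex and its interaction with strain were examined in the same 12 saline mice in room air. Of the 7 genes, 0 were called for sex, where 0.669% of all genes were, and 1 of the 7 passed an unadjusted p under 0.05, as did 23.3% of all genes. That was Krt8, with a male minus female difference of -0.26 (unadjusted p = 0.0342, adjusted p = 0.188, limma). For strain by sex, 0 of the 7 and 0% of all genes were called by limma, and 2538 genes (16.3%) had an unadjusted p under 0.05, among them 1 of the 7. Itgb6 had that p, with a difference of 0.87 (95% confidence interval 0.17 to 1.57, unadjusted p = 0.0187, adjusted p = 0.242). Its values were 16.65, 20.88 and 21.62 FPKM in C3H males and 13.16, 19.02 and 11.53 FPKM in C3H females. They were 13.25, 10.32 and 10.33 FPKM in C57B males and 17.97, 18.81 and 11.07 FPKM in C57B females. The ranges of males and females overlapped in C57B and in C3H.

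ATG was given before the exposure, and its comparison with saline asked whether the drug moved these genes. In room air 0 of the 7 genes were called, where 0.0185% of all genes were, and 1 of the 7 (Sfn) had an unadjusted p under 0.05, against 6.64% of all genes. Sfn was at 12.5 ± 7.77 FPKM with saline and 10.9 ± 7.33 FPKM with ATG (SD, n = 12 each; log2 fold change -0.21, adjusted p = 0.724, limma). Lgals3 was at 169 ± 28.3 and 191.7 ± 45.8 FPKM (SD, n = 12 each; log2 fold change 0.16, adjusted p = 0.75, limma). The groups overlapped for every gene.

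In hyperoxia 0 of the 7 genes were called for ATG, where 5.47% of all genes were, and 3 of the 7 had an unadjusted p under 0.05, against 21.9% of all genes. These were Krt18, Krt8 and Krt7, each with a negative difference, ATG minus saline. Krt18 ran from 172.8 to 666.8 FPKM with saline (median 321.9) and from 153.3 to 355.4 FPKM with ATG (median 231.9), and the difference was -0.45 (95% confidence interval -0.74 to -0.15, adjusted p = 0.0663, limma). Krt8 had medians of 470.7 and 408.5 FPKM (-0.30, 95% confidence interval -0.58 to -0.01, adjusted p = 0.204, limma), and Krt7 medians of 205.0 and 181.9 FPKM (-0.17, adjusted p = 0.209, limma). The groups overlapped for all 3. Krt18 passed the threshold after quantile normalization (adjusted p = 0.036) and with the spread estimated over all 48 mice (adjusted p = 0.0272), and also without C57BM 21 (-0.50), C57BM 22 (-0.51) or C3HF 31 (-0.53), at adjusted p from 0.0272 to 0.0353.

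Sfn had different values with ATG in the 2 strains. In C3H hyperoxia mice its median was 31.8 FPKM with saline and 60.92 FPKM with ATG, and in C57B 121.4 and 86.93 FPKM. By sex, the C3H means with saline and ATG were 25.7 ± 2.19 and 66.9 ± 8.54 FPKM in males and 45.4 ± 15.4 and 49.6 ± 9.93 FPKM in females (SD, n = 3 each). With ATG the C3H mice ran from 42.34 to 76.68 FPKM and the C57B mice from 62.67 to 127.1 FPKM, so that the strains overlapped, whereas with saline they did not. The difference between the strains in the ATG response, a comparison added after the values had been seen, was 1.12 (95% confidence interval 0.49 to 1.75, unadjusted p = 0.00147, adjusted p = 0.11, limma). It passed without C3HF 33 (1.25, adjusted p = 0.0362) or C57BF 48 (1.29, adjusted p = 0.0416), and with the spread estimated over all 48 mice (adjusted p = 0.0188). Of the 7 genes, 0 were called, where 0.416% of all genes were, and 2 of the 7 (Sfn and Krt7) had an unadjusted p under 0.05, against 13.3% of all genes. Krt7 went the other way, with a difference of -0.39 (adjusted p = 0.299, limma). In its C3H mice Krt7 had medians of 227 FPKM with saline and 180.2 FPKM with ATG, and in C57B 189.6 and 189.1 FPKM.

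For the interaction of ATG with hyperoxia over all 48 mice, 0 of the 7 genes were called, where 2.77% of all genes were, and 3 of the 7 had an unadjusted p under 0.05, against 18.8% of all genes. These were Krt18 (-0.39, adjusted p = 0.204, limma), Krt7 (-0.24, adjusted p = 0.252) and Sfn (0.40, adjusted p = 0.231). Among the ATG mice, hyperoxia and room air did not overlap for Krt8, Krt18, Sfn or Lgals3, where 8.82% of all genes were higher in hyperoxia without overlap. Krt8 medians were 408.5 against 110.8 FPKM, Sfn medians 63.34 against 9.327 FPKM, and Lgals3 medians 683.9 against 180.2 FPKM (n = 12 each).

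Other genes described for the transitional state were read beside the 7. Of a list of 16, 15 rose with hyperoxia in saline mice, where 31.8% of all genes rose. Of the 16, 0 fell and 1 (Clu) did not pass the test, and the median log2 fold change was 1.92. Within C3H 15 were called higher and 0 lower, where 25.3% of all genes were higher. Within C57B 14 were called higher and 1 lower, where 25.5% of all genes were higher and 30% lower. Cdkn1a, the p53 target that encodes the cell cycle inhibitor p21, went from a median of 38.29 to 600.9 FPKM (log2 fold change 3.95, adjusted p = 3.59e-17, limma). Tnfrsf12a, the receptor of the cytokine TWEAK, went from 45.01 to 458.4 FPKM (3.14, adjusted p = 1.36e-14), and Areg, a ligand of the EGF receptor, from 5.28 to 46 FPKM (3.06, adjusted p = 1.67e-12). Fosl1, a subunit of the AP-1 transcription factor, went from 0.911 to 14.48 FPKM (2.84, adjusted p = 9.76e-09). For all 4 the lowest hyperoxia mouse was near or above the highest room air mouse, with Fosl1 alone overlapping (1.306 FPKM the lowest in hyperoxia and 1.463 FPKM the highest in room air).

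The hyperoxia response of these genes was compared between strains in the same way. Of the 16, 4 had a smaller rise in C3H (Fosl1, Edn1, Ctgf and Tnfrsf12a) and 0 a larger one, with limma, where 2.81% of all genes had a lower response in C3H. Fosl1 rose to a median of 4.219 FPKM in C3H and 35.93 FPKM in C57B (difference in log2 fold change -2.35, adjusted p = 0.00621), and Tnfrsf12a to 271.3 and 526.1 FPKM (-0.97, adjusted p = 0.00651). Edn1, which encodes endothelin 1, rose to 40.81 and 94.56 FPKM (-1.58, adjusted p = 0.000213), and Ctgf, a matrix protein gene induced by TGF-beta, to 300 and 559.2 FPKM (-1.20, adjusted p = 0.019). At baseline 4 of the 16 were lower in C3H and 2 higher, where 7.87% of all genes were lower and 3.92% higher. In hyperoxia 9 of the 16 were lower in C3H and 0 higher, where 11.1% of all genes were lower, and among the 9 Fosl1 (-2.42), Cldn4 (-2.12), Sprr1a (-1.22) and Edn1 (-1.10) showed the widest gaps.

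The keratins of basal and squamous epithelia were low. Of 12 other keratins, 5 passed the filter on low values, and the basal cell genes Krt5 and Trp63 stayed under 1 FPKM in every mouse. Of the 5, 3 rose with hyperoxia (Krt80, Krt23 and Krt79) and 1 fell (Krt10), where 31.8% of all genes rose and 28.3% fell. The remaining gene, Krt14, did not pass. Within C3H the count was also 3 higher and 1 lower, and within C57B 1 was higher (Krt80), 1 lower and 3 not called. The strain difference in this response was called for 1 of the 5, Krt23, where 11.5% of all genes were called. Krt80 went from a median of 34.18 to 72.84 FPKM (log2 fold change 1.29, adjusted p = 3.95e-05, limma). Krt79 was higher in C3H at baseline (1.64, adjusted p = 0.000114) and in hyperoxia (2.37, adjusted p = 6.11e-09), with medians of 38.7 FPKM in C3H and 6.729 FPKM in C57B in hyperoxia. Among the genes that anchor keratin filaments at desmosomes, 8 of 10 were tested, of which 4 rose and 2 fell. The shares over all genes were 31.8% and 28.3%. The plakin Ppl rose most (1.44, adjusted p = 3.65e-09), Plec rose by 0.47, and Jup, which encodes plakoglobin, fell from a median of 222.3 to 110.7 FPKM (-1.15, adjusted p = 2.24e-09), with Evpl also lower (-0.49).

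The integrin chains and TGF-beta genes around Itgb6 were read beside it. Of 8 integrin and TGF-beta genes tested, 3 rose with hyperoxia and 2 fell, where 31.8% of all genes rose and 28.3% fell. Both counts are near those shares. Itgav, the alpha v chain with which beta 6 pairs, rose by 0.48 (adjusted p = 0.00454, limma), Itgb1 by 0.63 and Tgfb2 by 0.41, and Itgb5 (-0.30) and Ltbp1 (-0.34) fell. Itgav had medians of 12.18 FPKM in room air and 12.44 FPKM in hyperoxia in C3H, against 10.34 and 23.16 FPKM in C57B. That difference between strains was called (-1.33, adjusted p = 0.00445, limma), as were those of Tgfb2 (-0.71) and Ltbp1 (-0.62). Over all genes, 11.5% were called for such a difference in either direction. Tgfb1 (0.39), Itgb3 (0.11) and Tgfb3 (-0.22) did not pass in the hyperoxia comparison.

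The other galectins and 14-3-3 genes are the relatives of Lgals3 and Sfn. Of 5 galectin genes, 3 rose, namely Lgals1 (0.80), Lgals3bp (0.35) and Lgals9 (0.31), while Lgals8 (0.03) and Lgals4 (-0.19) did not pass. Over all genes, 31.8% rose. Lgals1 had a median of 136.7 FPKM in room air and 223 FPKM in hyperoxia, and was also higher with ATG in hyperoxia (0.39, adjusted p = 0.0213, limma). Of 6 other 14-3-3 genes, 3 rose (Ywhae 0.45, Ywhag 0.21 and Ywhaz 0.14), 2 fell (Ywhaq -0.13 and Ywhab -0.12) and Ywhah (0.09) did not pass. Ywhae had the highest fold of these, from a median of 265.8 to 361.6 FPKM. The 14-3-3 counts stand beside 31.8% of all genes rising and 28.3% falling.

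**Figure D4:**
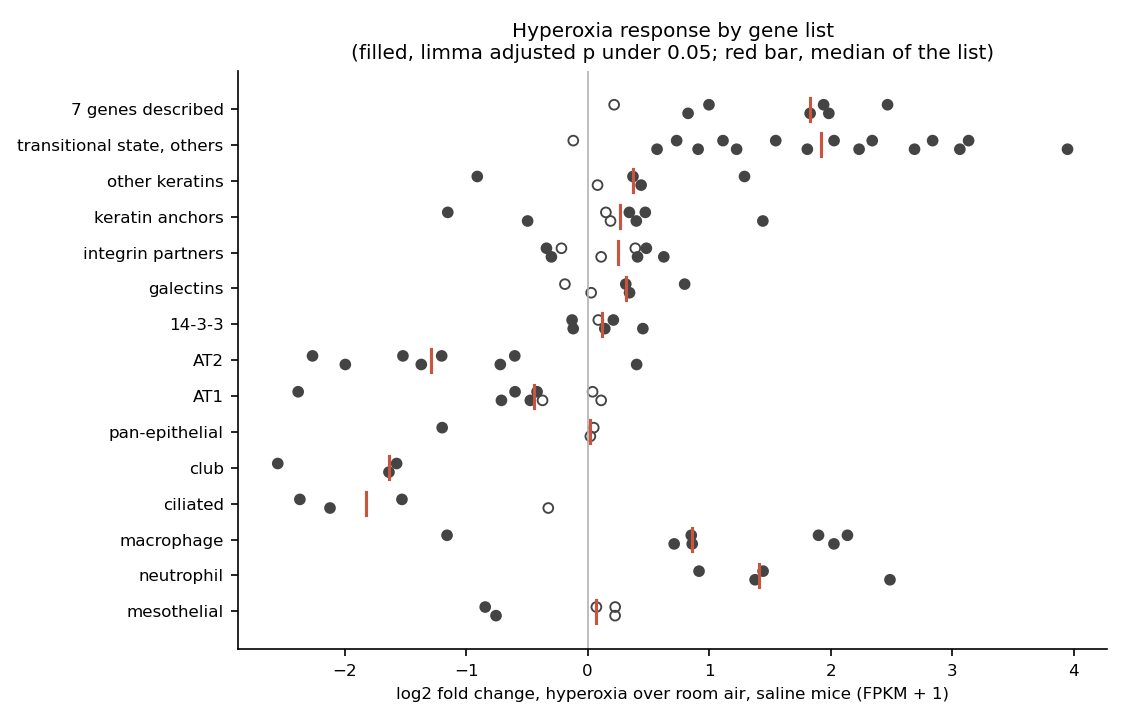
Log2 fold change of each tested gene of 15 lists for hyperoxia over room air in saline mice, filled where the limma adjusted p was under 0.05, with the median of each list as a red bar. The 7 genes (median 1.83) and the other transitional genes (median 1.92) lay to the right, AT2 (-1.28), club (-1.64) and ciliated markers (-1.82) to the left.

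Markers of the cells that could hold these transcripts were read beside them. Of 8 AT2 markers, 7 fell with hyperoxia and 1 rose, where 28.3% of all genes fell. Sftpc went from a median of 29210 to 5903 FPKM (-2.26, adjusted p = 1.44e-10, limma), Sftpa1 fell by 1.99, Lamp3 by 1.52 and Etv5 by 1.37, and Sftpb rose by 0.40. Of 8 AT1 markers, 5 fell and 0 rose, led by Rtkn2 (-2.38), Hopx (-0.71), Ager (-0.60) and Clic5 (-0.47). All 3 club cell markers and 3 of 4 ciliated markers fell, against the same 28.3% of all genes. By strain, 4 of 8 AT2 markers fell, 1 rose and 3 were not called in C3H (median log2 fold change -0.85). In C57B 7 of the 8 fell and 0 rose (-1.67). Of 3 club cell markers, 1 fell in C3H and 3 fell in C57B (median log2 fold changes -0.54 and -2.82). The ciliated markers gave 3 of 4 and 4 of 4, where 12.5% of all genes fell in C3H and 30% in C57B. The strain difference in response was called for 2 of 8 AT2, all 3 club cell and 2 of 4 ciliated markers, where 11.5% of all genes were called. Of the 3 general epithelial markers, Nkx2-1 fell (-1.20) while Epcam had medians of 41.53 and 41.88 FPKM and Cdh1 91.37 and 89.46 FPKM in room air and hyperoxia. Of 5 mesothelial markers, 2 fell and 0 rose. All 4 neutrophil markers and 6 of 7 macrophage markers rose, led by Retnlg (2.49), S100a8 (1.44), Chil3 (2.14) and Cd68 (2.03). The other macrophage marker fell. Over all genes, 31.8% rose. By strain, 1 of 4 neutrophil markers rose in C3H and 2 of 4 in C57B, where 25.3% and 25.5% of all genes did. For macrophage markers the counts were 5 and 6 of 7. Summed neutrophil markers in C3H saline mice had medians of 184.9 FPKM in room air and 201.5 FPKM in hyperoxia (highest 6195 FPKM). In C57B saline mice the medians were 455.3 and 3024 FPKM (159.1 to 4798 FPKM in hyperoxia). How far any of these cells contributed to the 7 genes was not tested.

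At baseline the alveolar markers also differed by strain. In C3H, 6 of 8 AT2 markers were lower and 5 of 8 AT1 markers higher, and all 4 neutrophil markers were lower. Over all genes, 7.87% were lower and 3.92% higher. Slc34a2 (-0.95), Sftpa1 (-0.91), Rtkn2 (0.66) and Pdpn (0.65) had the widest differences of the AT2 and AT1 lists. These moved in the same samples as the strain differences of Sfn, Krt18 and Krt19, and their part in them was not tested.

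Across all 48 mice the genes nearest in pattern to each of the 7 were named by Pearson's r of log2(FPKM + 1) over the 14547 genes with a mean of at least 1 FPKM. These r are descriptions, since mice of the same air, strain and table share their level. Krt8 was nearest to Krt8-ps (r = 0.973), Krt18 (0.962) and F3 (0.954), and Krt18 to Krt8, F3 (0.923) and Mt1 (0.922). Sfn was nearest to Gclc (0.961), H3f3b (0.961) and Rplp0 (0.951), and Lgals3 to Ctsz (0.967), Ftl1 (0.959) and Akr1b8 (0.955). Krt7 was nearest to Lmna (0.907), Gpnmb (0.903) and Col5a2 (0.899), and Krt19 to Gm10116 (0.901), Anxa1 (0.889) and Krt7 (0.887). Itgb6 had no close neighbour, with Abhd17c (0.788), Cdipt (0.715) and Nudcd3 (0.712) nearest.

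Within the 16 groups, after each group mean had been taken off, Krt8 and Krt18 kept the highest r of any pair (0.833), and Krt7 and Krt19 the next (0.768). Krt7 and Krt18 gave 0.094 in the same measure, and Sfn and Itgb6 gave -0.381. Over 48 mice in 16 groups of 3, these values describe how single mice deviated from their groups.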

How the data were processed

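RNA from whole lung was sequenced by the authors (2x150 bases on HiSeq; the labels name a directional mRNA kit and the study's methods another). Per the labels, reads were aligned with GSNAP to mm10 and quantified with Cufflinks, and the deposited table holds FPKM per gene, scaled per library and per length by the authors. Reads of both strains were aligned to the same assembly, and an effect of sequence differences between the strains on FPKM was not tested. Akap5, with a failed estimate in 7 mice, was left out. From the deposited FPKM, log2(FPKM + 1) was fitted in limma 3.58.1 (R 4.3.3) with a mean for each strain, sex, injection and air group of 3 mice, a trended variance and Benjamini-Hochberg adjustment over all genes with at least 1 FPKM in at least 3 mice fitted. Baseline fits used 12 mice, all others 24 or 48, as the text says. Low genes have their folds understated on this scale. Means in FPKM were tested by exact two-sided permutation within strain and sex. FPKM carry no counts, so no counting interval is given, and p-values measure the spread between these mice. The script was tested on simulated data.

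The 7 genes and all lists were chosen with earlier results of these data known. All 7 genes are named. From each list come up to 4 genes with the largest log2 fold change among those called, all relatives tested by family, and the 3 genes nearest in pattern. Clu, Krt14, Krt5, Trp63, Epcam, Cdh1, Gm36026 and Gm671 were named after their values were seen. Eppk1 and Siglec5 had no row. Words shared between genes were counted over GENCODE M21 transcripts. Alternatives were another pseudocount, other filters, quantile and median ratio scaling, no trend, all 48 mice, single sexes, and leaving out C3HM 1 and 3 together or each mouse in turn.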

Additional observations from a re-analysis of the deposited data

Results flagged for a closer look

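Among 56 sets of 6 mice (7 genes, 8 combinations of strain, injection and air), 6 held a mouse whose gap to its nearest neighbour passed Dixon's 95% limit for 6 values, 0.625 of the range. Chance flags about 1 in 20 such sets. C57BM 17 was high for Krt7 (119.3 FPKM) and for Krt19 (232.8 FPKM) among C57B mice given ATG in room air. C3HM 11 was high for Krt19 (655.3 FPKM) among C3H mice given ATG in hyperoxia. C3HF 33 was high for Sfn (63.18 FPKM) among C3H saline mice in hyperoxia. C57BM 13 was high for Lgals3 (204.5 FPKM) among C57B saline mice in room air, and C57BM 24 was low for Lgals3 (407.8 FPKM) among C57B mice given ATG in hyperoxia. C57BM 24 also had the lowest Krt8 (206.3 FPKM) and Krt18 (153.3 FPKM) of all hyperoxia mice.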

How the results depend on the processing

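The hyperoxia calls of Krt7, Krt8, Krt18, Krt19, Sfn and Lgals3, and the Sfn strain calls in both airs, were kept under every alternative run. FPKM without counts leave the precision of low genes unknown. No paired analysis was possible because each mouse has its own number and no number is shared between groups. The count of genes called for strain at baseline (1832) was 2982 with all 48 mice, 782 in males and 779 in females, and 1306 to 4021 with 1 mouse left out, the highest without C3HM 2. Of the 7 genes, 3 were called there, 1 in either sex alone, and 1 to 4 with 1 mouse left out. The count for sex (104) was 40 and 60 with looser filters, 1915 with all 48 mice, 30 without C3HM 1 and 3, and 20 to 3640 with 1 mouse left out. The count for strain by sex (0) was 5 with a pseudocount of 0.1, 2 with either filter or without the trend, 748 with all 48 mice, 1 without C3HM 1 and 3, and 0 to 2741 with 1 mouse left out. The count for hyperoxia (9803) was 6403 in males and 9479 to 10098 with 1 mouse left out. Within C3H (6169) it was 3380 in males and 4006 in females (5395 to 7007 with 1 left out), and within C57B (9063) 5059 in males (8397 to 9494). For hyperoxia by strain (1880) it was 2994 with all 48 mice, 293 in males, 206 in females and 1400 to 3242 with 1 left out, with 0 to 1 of the 7 called. For hyperoxia by sex (6) it was 2 after median ratio scaling, 306 with all 48 mice and 2 to 1270 with 1 left out, with 0 to 2 of the 7 called. For strain in hyperoxia (4441) it was 1614 in males, 2030 in females and 3553 to 5057 with 1 left out, with 2 to 3 of the 7. For ATG in room air (3) it was 5 with the filter above 0 and without C3HM 1 and 3, 1 in males, 7 in females and 3 to 32 with 1 left out. For ATG in hyperoxia (868) it was 0 in males, 9 in females and 443 to 1096 with 1 left out, with 1 of the 7 called after quantile normalization and with all 48 mice, and 0 to 1 with 1 left out. For ATG by strain in hyperoxia (66), a comparison added after the values had been seen, it was 234 with all 48 mice, 0 in males, 1 in females and 37 to 302 with 1 left out, with 1 of the 7 called with all 48 mice and 0 to 1 with 1 left out. For ATG by hyperoxia (470) it was 313 with the filter above 0, 4 in males, 2 in females and 243 to 1093 with 1 left out. Single sexes hold fewer mice; the cause of the other shifts was not tested. These values changed sign, none of them called: Krt8 between strains at baseline (0.02) gave -0.01 after quantile normalization and -0.16 in females (-0.03 to 0.09 with 1 mouse left out), and Itgb6 gave -0.12 in females. Itgb6 with hyperoxia in C3H (0.11) gave -0.03 after quantile normalization and -0.05 after median ratio scaling (0 to 0.21 with 1 left out). For hyperoxia by strain, Krt18 gave -0.17 in males, and Sfn -0.16 after median ratio scaling, -0.01 without C3HM 1 and 3 and -0.40 in males (-0.14 to 0.23 with 1 left out). Krt18 between strains in hyperoxia gave -0.47 in males (-0.03 to 0.24 with 1 left out). With ATG in room air, Sfn gave 0.14 in males and Lgals3 -0.03 in females, and Sfn with ATG in hyperoxia gave -0.23 in females.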
